A study of Rattus norvegicus with 12 samples.

Results

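Normal rat lung is described here from the 5 arrays of buffer-injected animals, out of 12 arrays in the series. The animals were male Wistar rats, an outbred strain, aged 12 weeks, which had received an intraperitoneal injection of sodium citrate buffer at 8 weeks. The other 7 animals received streptozotocin at the same age. All lungs were removed under anaesthesia after an overnight fast, 4 weeks after the injection, and each animal gave 1 RNA sample and 1 Affymetrix RAE 230A array. No transgene or deletion is named for any of them. Because RNA came from whole lung, fewer cells of a type and less RNA per cell cannot be told apart, and the RNA is a mixture over airways, alveoli, vessels and the blood left in them.

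The alveolar wall is lined by thin alveolar type I cells, across which gas diffuses, and by cuboidal type II cells, which make surfactant. Surfactant is a film of lipid and protein that lowers surface tension and keeps the alveoli open. Below this epithelium lie a dense capillary bed, elastic and collagenous fibres made by fibroblasts, and resident macrophages, while the small airways are lined by secretory club cells and ciliated cells. The transcription factor NKX2-1 sets the identity of the lung epithelium and drives surfactant and secretoglobin genes.

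Expression was measured as the MAS 5.0 signal, a linear intensity per probe set, with every array scaled by the authors to the same trimmed mean of 500.1. A gene was represented by its probe set of highest mean signal among those naming it alone, which gave 10411 genes from 12783 probe sets. Signals of different probe sets depend on their probes, so that the order given here is an order of signals and not of transcript amounts. Medians of single arrays lay between 260.2 and 272.8, and Pearson r of log2 signal between arrays, across genes of mean signal of at least 200, ranged from 0.960 to 0.982. The ratio of 3′ to 5′ signal, a measure of RNA integrity, was 1.63, 1.75, 2.01, 2.17 and 2.75 in animals 1 to 5 for beta-actin and lay between 1.23 and 1.44 for GAPDH.

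A mean signal of at least 200 was reached by 6755 genes (64.9%), and of at least 1000 by 1918 genes (18.4%). Signals of at least 5000 were found for 161 genes. Med7, at a mean of 200.04, was the lowest gene kept, and Rfc4, at 199.96, the highest left out. Since no present or absent calls were used here, a mean signal under 200 does not show that a gene was silent.

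The genes of highest signal were those of the lung's secreted proteins, of blood, of mitochondria and of ribosomes. Lyz2, which encodes the antibacterial enzyme lysozyme of macrophages and type II cells, had the highest mean signal at 26339.9 ± 4191 (SD, n = 5). It read 30108, 22516, 21507, 30536 and 27032 in animals 1 to 5. Hbb, the beta chain of haemoglobin, followed at 26252 ± 3949.7, with a probe set of a kind that can also bind related globin transcripts. Sftpc, surfactant protein C, a small hydrophobic protein made only by type II cells, read 29964, 23692, 22065, 26096 and 26591. Sftpa1, the collectin surfactant protein A, had a mean of 21978 and varied less, from 20694 to 24608. Scgb1a1, the secretoglobin of club cells, had a mean of 21761 with a range of 19593 to 23384. Surfactant protein B, encoded by Sftpb, had a mean of 13418 and surfactant protein D, encoded by Sftpd, one of 10513.

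Of the 25 genes of highest signal, 11 encoded ribosomal proteins, led by Rpl37a at 19091 and Rps29 at 16937. Subunits of cytochrome c oxidase that are encoded in the mitochondrial genome, COX1 and COX2, had means of 24068 and 21479.7. The others were Eef1a1, the translation elongation factor, Tmsb4x, which binds actin monomers, Actg1, a cytoplasmic actin, Sptbn1, a spectrin of the membrane skeleton, B2m, the light chain of class I histocompatibility molecules, and the interferon-induced Ifi27. Over all 43 ribosomal protein genes with a probe set, 34 had a mean of at least 5000 and the median was 8802. The SD of log2 signal was 0.06 to 0.23 over the 25 genes. Of these 25, 20 were lowest in animal 3 and 20 were highest in animal 1 or 4, as the plot of the highest signals shows, so that their differences between animals largely ran together. After quantile normalization their median SD was 0.08 instead of 0.15.

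**Figure D1:**
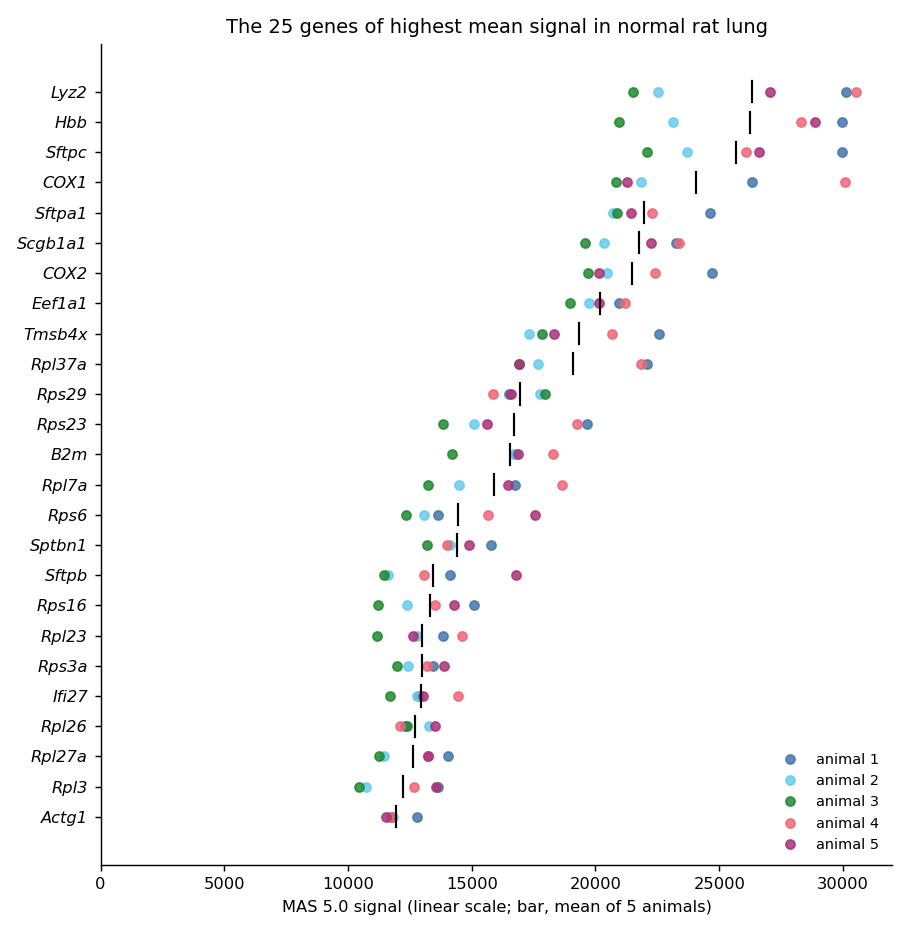
MAS 5.0 signal (linear scale) of the 25 genes of highest mean signal in normal lung, with 1 point per animal and a bar at the mean of 5. Lyz2, Hbb and Sftpc lead with means from 25682 to 26339.9, and the points of animal 3 are the lowest for 20 of the 25 genes.

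The 200 bases before the start site of genes that NKX2-1 is known to drive, and of its own gene, are shown because several of them stand at the top of the order of signals. They were taken from RefSeq on build GRCr8, and CTCAAG, the core of NKX2-1 sites, was searched on both strands and is in capitals. Napsa, Sftpc and Sftpd are named only.
Sftpb (chr4:105917388-105917587, plus strand): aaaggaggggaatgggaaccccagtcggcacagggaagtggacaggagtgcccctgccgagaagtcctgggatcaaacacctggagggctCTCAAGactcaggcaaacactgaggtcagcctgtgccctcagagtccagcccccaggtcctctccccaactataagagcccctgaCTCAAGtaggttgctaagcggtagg
Scgb1a1 (chr1:215409687-215409886, minus strand): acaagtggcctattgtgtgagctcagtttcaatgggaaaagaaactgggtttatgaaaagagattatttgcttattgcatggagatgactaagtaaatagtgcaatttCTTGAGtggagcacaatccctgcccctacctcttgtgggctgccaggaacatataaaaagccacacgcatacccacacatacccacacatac
Nkx2-1 (chr6:79734868-79735067, minus strand): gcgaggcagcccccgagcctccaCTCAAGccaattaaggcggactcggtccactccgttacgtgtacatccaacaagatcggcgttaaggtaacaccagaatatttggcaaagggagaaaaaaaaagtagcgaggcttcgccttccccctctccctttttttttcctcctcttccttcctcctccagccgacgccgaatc
Sftpa1 (chr16:17042064-17042263, plus strand): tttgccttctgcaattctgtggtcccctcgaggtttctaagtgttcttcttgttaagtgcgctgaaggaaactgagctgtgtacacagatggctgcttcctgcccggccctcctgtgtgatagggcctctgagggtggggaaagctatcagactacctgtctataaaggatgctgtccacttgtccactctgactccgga
The letters stood 110 and 25 bases before the start of Sftpb, 92 bases before that of Scgb1a1 on the opposite strand and 177 bases before that of Nkx2-1. The windows of Sftpa1 and of Abca3, which is not shown, did not hold them. Over all 33469 promoters of the table, 10.6% held them in the same length. Nkx2-1 itself read 2268, 2211, 2188, 2044 and 2050, with an SD of log2 signal of 0.07.

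Markers of the cell types that build the alveolus were high in every animal, while markers of tissues that lie next to the lung were low. Over all genes, 64.9% had a mean of at least 200, with a median SD of 0.16. Of 11 type II markers on the array, 10 had such a mean, with a median SD of 0.13. Besides the surfactant proteins these were Slc34a2, the phosphate transporter of type II cells, at 9746, Lpcat1 and Abca3, which make and load surfactant lipid, at 3193 and 1818, the protease Napsa at 3170.4 and the mucin Muc1 at 2188. The exception was Cebpa, at 78.0. All 10 type I markers passed, led by Ager, the receptor for advanced glycation end products, at 8825, and followed by Hopx at 6924, Pdpn, podoplanin, at 6863, and Gprc5a at 5354. The water channel Aqp5 had a mean of 2569.

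All 15 endothelial markers passed 200, and their median SD was 0.16, the same as over all 6755 genes of that level. Ramp2, a coreceptor for adrenomedullin, had a mean of 5840, the VEGF receptor Kdr one of 5347, Cldn5, a tight junction protein, one of 5019.7 and Plvap one of 4362. Ace, the angiotensin converting enzyme, for which the lung capillaries are a main site, had a mean of 4019. Emcn was the most variable of them, with 3102, 3421, 2680.2, 1617 and 2758, and animal 4 lay below the rest. All 13 fibroblast and matrix markers passed as well, with Mgp, an inhibitor of calcification, at 11519, Gsn, gelsolin, at 11175, the collagen chain Col3a1 at 8739 and the elastic fibre protein Mfap4 at 8714. Mgp was nearly constant, from 11207 to 11996, whereas Inmt, a methyltransferase, read 3045, 4426, 2235, 2973 and 1236.

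Smooth muscle markers passed in 10 of 11 cases, led by the myosin kinase Mylk at 4355, and pericyte markers in 5 of 6, led by Mcam at 1422. The share of all genes that passed was 64.9%. Of the airway secretory markers, Scgb1a1, Aldh1a1 (6421) and Cyp2f4 (879) passed, and the mucin Muc5ac (64.7) did not. Ciliated cell genes were represented by Tppp3 at 4183 and Tubb4b at 3897, which other cells also express, and by the ciliary Tekt1, at 178 to 293, with Foxj1, the regulator of motile cilia, at 186.3. Basal cell keratins were low, with Krt5 at 107.8 and Krt14 at 66.2.

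Most lymphocyte markers and several myeloid markers lay near or under the lower limit, while a few myeloid genes were bright. Macrophage markers passed in 9 of 11 cases, beside 64.9% of all genes. Among them were Lyz2, the gene of highest signal, which type II cells also express, Ctsd, a lysosomal protease, at 4088, Csf1r at 1195 and Cd68 at 687. C1qa, C1qb, C1qc and Cd14 lay between 402 and 442, Pparg at 234, and Fabp4 and Ctsk at 50.9 and 70.0. Of 11 T cell markers 7 passed, a share near that of all genes, led by the kinase Lck at 889.6 and Cd3g at 504. Of 9 natural killer cell markers 7 passed, led by Nkg7 at 461. Cd79b, at 316, was the one listed B cell marker with a probe set. The granulocyte protein S100a9 had a mean of 2347, and the platelet chemokine Pf4 one of 2442. Neutrophil markers passed in 3 of 6 cases, with Mmp8, Cxcr2 and Mmp9 at 162.3, 87.9 and 60.3. Platelet markers passed in 2 of 4 cases, with Ppbp and Gp5 at 147.5 and 68.9. Of 6 erythroid genes 2 passed, Hbb and, at 1457, Alas2, the first enzyme of haem synthesis in red cells. Slc4a1 was at 190.2, and Hemgn, Ahsp and Rhag were at 95.5, 95.3 and 19.5.

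Heart lies against the lung, but 17 of 18 cardiac muscle markers had means under 200, among them Myh6 at 149.6, Tnnt2 at 78.9 and Nppa at 138.0. Mybpc3, at 288, was the one that passed, with or without animal 5. Some heart genes were higher in animal 5 than in the others, and some were not. Myh6 read 374.9 there and 50.5 to 145 in the rest, and the atrial light chain Myl7 320.3 and 17.8 to 155. Csrp3, a muscle LIM protein, read 178 and 18.4 to 86.6. Nppa went otherwise, with 94.7 in animal 5 and 113 to 172 in the rest, and Mybpc3 read 242 there and up to 393 elsewhere. Without animal 5 the means of Myh6, Myl7 and Csrp3 were 93.2, 81.3 and 47.2, an alternative chosen after the values had been seen. The signals of the 18 markers summed to 1451, 1258, 1395, 2071 and 2279.5 in animals 1 to 5, and 7 markers were highest in animal 4 and 7 in animal 5. Over all genes of mean signal of at least 200, animal 4 was highest for 23.7% and animal 5 for 24.0%. A share for genes under 200, where 17 of the 18 markers lay, is not given. Skeletal muscle markers passed in 2 of 12 cases, Mybpc2 at 283 and Myh1 at 1109. The 5 probe sets that name Myh1 had means between 396 and 1109, while Acta1, Ckm and Tnnt3 were at 42.8, 137.1 and 84.3. None of the 4 markers of thyroid, oesophagus and thymus and none of the 7 of nerve passed. Among 10 hepatocyte markers, Alb, Apoa1 and Ttr read 86.8, 6.6 and 103.0, but Fgg, the gamma chain of fibrinogen, had a mean of 1555 with values of 1487, 1343, 1966, 1307 and 1671, and Serpina1 one of 574. Xist, the RNA of the inactive X chromosome, had a mean of 9.5 in these male animals. The plot of marker signals shows these groups side by side.

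**Figure D2:**
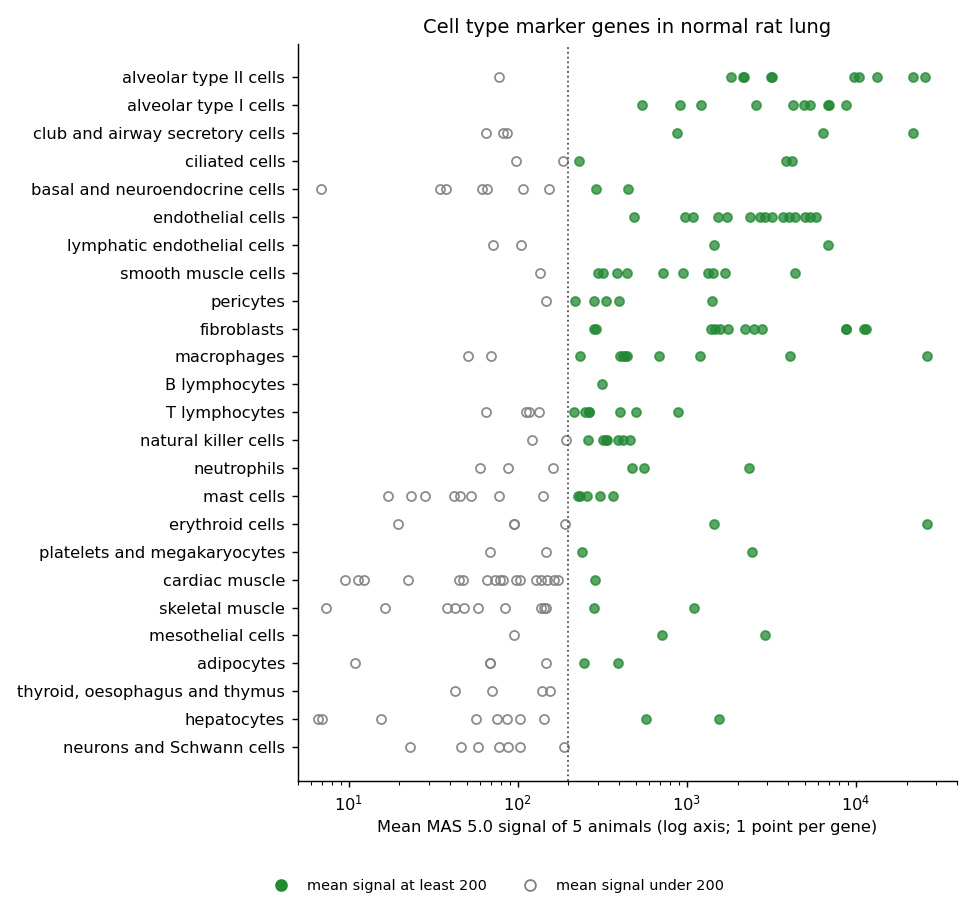
Mean MAS 5.0 signal of 5 normal animals (log axis) for the genes of 25 marker lists, with 1 point per gene, filled at a mean of at least 200 (dotted line) and open below it. All markers of type I cells, endothelium and fibroblasts are filled, while 17 of 18 cardiac markers are open.

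Isoform families were read next, because tissues differ in which member of a family they express. Of 147 such genes with a probe set, 90 had a mean of at least 200 (61.2%), beside 64.9% of all genes. Among glucose carriers only Slc2a1 (GLUT1), the carrier of most tissues, and Slc2a8 passed, with means of 351 and 204.7. Slc2a4 (GLUT4), the insulin-responsive carrier of muscle and fat, was at 124.8, Slc2a3 at 128.4 and the liver carrier Slc2a2 at 6.2. Slc2a1 was steady, at 370.1, 346, 327, 375 and 339. Hexokinase was represented by Hk1 at 780, with Hk2, the muscle form, at 88.8. The phosphofructokinase subunits of glycolysis all passed, the platelet form Pfkp at 703, the muscle form Pfkm at 482 and the liver form Pfkl at 264. Of the bifunctional enzymes that regulate them, Pfkfb3 (388) and Pfkfb2 (236) passed, and Pfkfb1 (177) and Pfkfb4 (145) did not.

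Lower glycolysis was represented by the ubiquitous forms. Aldoa had a mean of 5659.9 and Eno1 one of 1891, whereas the brain aldolase Aldoc was at 17.4, the neuronal enolase Eno2 at 102.1, the muscle enolase Eno3 at 125.7 and the liver pyruvate kinase Pklr at 115.2. Both subunits of lactate dehydrogenase were high, Ldha at 2950.5 (2755 to 3084) and Ldhb at 1166 (871 to 1317), and the testis form Ldhc was at 16.8. The lactate carriers Slc16a1, Slc16a7 and Slc16a3 had means of 282, 241 and 239.7. Of the gluconeogenic enzymes, cytosolic Pck1 was at 156.2, mitochondrial Pck2 at 227, and the ubiquitous glucose phosphatase G6pc3 at 362. Glycogen phosphorylase was represented in the order of signals by the brain form Pygb (1029.7), the liver form Pygl (594) and the muscle form Pygm (224), and glycogen synthase by Gys1 (442), with the liver form Gys2 at 6.2.

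Pyruvate dehydrogenase kinases passed in 3 of 4 cases. Pdk3 had a mean of 454, Pdk2 one of 263 and Pdk1 one of 256, with Pdk4, which responds to fasting in muscle, at 149.5 after the overnight fast of these animals. In fat metabolism, Fabp5, the epidermal fatty acid binding protein, read 2163, 1818, 1886, 1415 and 1419.7, and the other 6 members of the family had means from 11.0 to 51.8. Among these 6, the heart form Fabp3 read 189.6 in animal 5 and 13.1 to 22.1 in the rest, and its mean fell from 51.8 to 17.4 without animal 5. Cpt1a, the liver form of the mitochondrial import enzyme, had a mean of 954, against 153.6 for the probe set of the muscle form Cpt1b. Acyl-CoA synthetases were led by Acsl5 at 2213 and Acsl4 at 1659. Fasn, the fatty acid synthase, had a mean of 3299 and was steady from 3011 to 3540.2.

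Cytochrome c oxidase was represented by the ubiquitous subunits Cox4i1 at 5519.6, Cox8a at 4111, Cox6b1 at 3158 and Cox6a1 at 2051. Cox4i2, the form associated with lung, had a mean of 284, and of the heart and muscle forms Cox7a1 was at 779, Cox8b at 219 and Cox6a2 at 42.1. Cox6a2 read 136.8 in animal 5 and 11.5 to 24.6 in the rest, with a mean of 18.4 without animal 5. Of the sodium pump beta subunits, Atp1b3 (3612) and Atp1b1 (1806) passed and Atp1b2 (9.9) did not. The calcium pumps Atp2b1 (3519.6), Atp2a2 (1748) and Atp2a3 (1225) passed, and the fast muscle pump Atp2a1 (147.8) did not. Among water channels Aqp5 (2569), of type I cells, and Aqp1 (2346), of capillaries, were followed by Aqp4 (245), and the other 6 were under 200. Carbonic anhydrase Car4, which faces the blood on lung capillaries, had a mean of 1539, beside Car8 at 1195, which has no enzymatic activity, and the red cell and general form Car2 at 1193.

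Antioxidant enzymes all passed, 13 of 13. The secreted glutathione peroxidase Gpx3 had a mean of 9809, Gpx1 one of 5985, the cytosolic dismutase Sod1 one of 5275, the peroxiredoxin Prdx6 one of 4273, catalase (Cat) one of 1958 and the extracellular dismutase Sod3 one of 1084. Aldehyde dehydrogenases passed in 8 of 10 cases, led by Aldh1a1 and by mitochondrial Aldh2 at 3172. Of the nitric oxide synthases Nos3, the endothelial form, was at 64.9 and Nos1, the neuronal form, at 122.3, and inducible Nos2 lay at the limit with 200.6. Among xenobiotic enzymes, Cyp4b1, known for its high level in lung, had a mean of 5202 and the monooxygenase Fmo1 one of 3753.

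Genes often used as references differed in their steadiness. Of the 12 with a probe set of their own, Pgk1 (SD 0.05) and Eef1a1 (0.06) varied least, followed by Gusb (0.08) and Sdha (0.10). Hprt1, Ywhaz, B2m, Rplp0 and Rpl13a lay between 0.11 and 0.13. Polr2a (0.18), Tbp (0.20) and Tfrc (0.36) lay above the median of all genes. The transferrin receptor Tfrc read 498, 446, 482, 615 and 824 in its leading probe set, so that animal 5 was the highest there. A further probe set of Tfrc, with a mean of 199, read 235, 225, 189, 206 and 140.5 and was lowest in animal 5. The 3′ control probe sets of beta-actin and GAPDH, which the array carries apart from the gene probe sets, had means of 16472 ± 1730 and 4337 ± 171.

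Most genes differed little among the 5 animals. The median SD of log2 signal over the 6755 genes was 0.16, with quartiles of 0.12 and 0.23, and the ratio of the highest to the lowest of the 5 signals had a median of 1.33. The highest was at least 2 times the lowest for 240 genes (3.55%). An SD of at least 0.5 was found for 99 genes (1.47%) and of at least 1 for 10 genes, while 1098 genes had an SD under 0.1. Spread rose toward low signals, as the plot of SD against signal shows. The median SD was 0.19 for the 2751 genes of mean signal from 200 to 500, and 0.13 for the 161 genes of at least 5000. Accordingly 66 of the 99 variable genes had a mean under 500, and 33 one of at least 500.

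**Figure D3:**
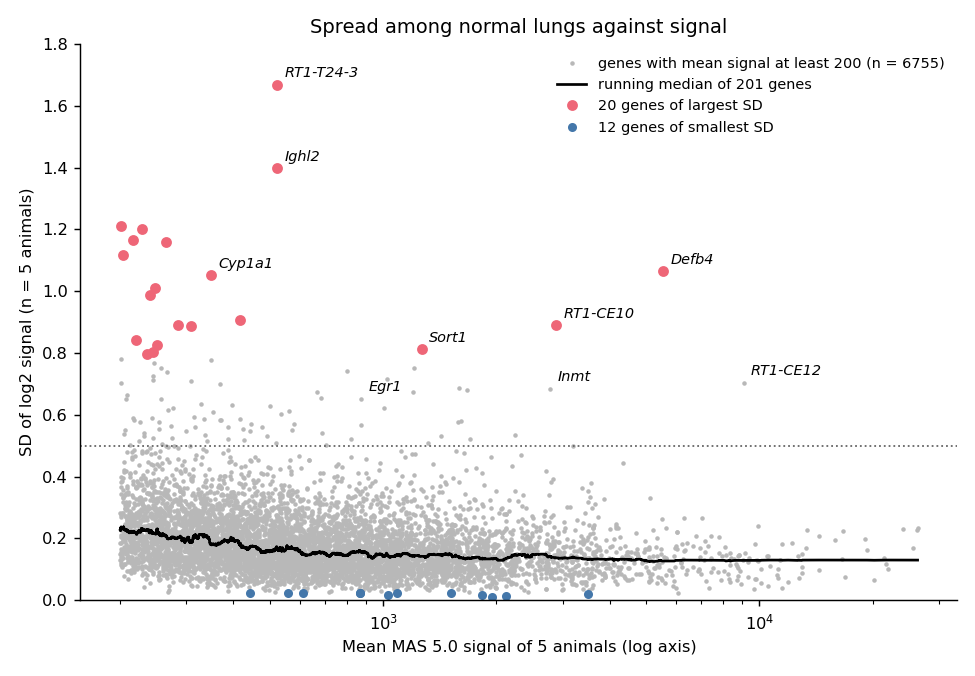
SD of log2 signal over 5 normal animals against mean MAS 5.0 signal (log axis) for 6755 genes, with the running median in black, the 20 genes of largest SD in red and the 12 of smallest SD in blue. The dotted line marks an SD of 0.5, and Defb4, RT1-CE10 and RT1-CE12 stand far above genes of like signal.

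The 20 genes of largest SD were chosen by that value, so that their values are a description. Of them, 15 had a mean under 500 and 12 one under 300. RT1-T24-3, a class I gene of the major histocompatibility complex, had the largest SD (1.67) and read 171, 138, 158, 2007 and 144. Animal 4 alone was high, and without it the SD was 0.14. Ighl2, an immunoglobulin heavy chain gene, read 136, 359, 175, 1632 and 315 (SD 1.40), and animal 4 was again the highest. Leaving out animal 4 lowered its SD to 0.67.

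Defb4, a beta-defensin, an antimicrobial peptide of epithelia, was the one gene among the 20 with a mean above 5000. It read 1926, 4965, 2418, 11323 and 7129, and the highest was 5.88 times the lowest. Its SD of 1.06 was 8.22 times the median SD of genes of like signal, the largest such ratio of all genes. The animals were spread rather than split, since no single animal left out took its SD below 0.88. Other genes of host defence among the 20 were Ifit1, an antiviral protein induced by interferon, and Cd8a, a chain of the coreceptor of cytotoxic T cells. Cd8a read 89.8, 346, 373, 249.5 and 196. Nos2, the inducible nitric oxide synthase, read 46.2, 206, 272, 377 and 102, at the lower limit of signal.

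Cyp1a1, the cytochrome induced through the aryl hydrocarbon receptor, read 739.5, 128, 475, 232 and 169 (SD 1.05). Animals 1 and 3 were high. Sort1, the sorting receptor sortilin, read 997, 1924, 1866, 1073 and 486, and a second probe set of the gene gave 194, 311, 289.8, 168 and 72.5. In both, animals 2 and 3 were the highest and animal 5 the lowest. Ptgis, the prostacyclin synthase, read 362, 93.4, 297, 218 and 459, and animal 2 alone was under 200. Clec3b, tetranectin, read 386, 204, 112, 439.6 and 93.6, with animals 1 and 4 high.

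RT1-CE10, bright and also among the 20, is described with its family. The remaining members had means under 500. Nkain4 (219, 375, 217, 44.8 and 290.3), Ccm2 (336, 424, 189.5, 57.3 and 320.1) and Dnm2, a dynamin (358, 297, 134, 86.7 and 228), were lowest in animal 4. Pik3r1, the regulatory subunit of phosphoinositide 3-kinase, was high in animals 2 and 3 (362 and 360) and between 63.2 and 119 in the others. Kcnip3 was low in animals 1 and 5 (120.3 and 80.6) and at least 304.7 in the rest. Grm8, a glutamate receptor, read 220.3, 50.4, 144, 465.7 and 199, and Aurkb, a mitotic kinase, 115, 432, 126, 235 and 272. Zfyve19 was low in animal 3 alone (93.8, with the others from 298 to 408), and Chrna7, a nicotinic receptor, in animal 5 alone (86.1, with the others from 237 to 378).

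**Figure D4:**
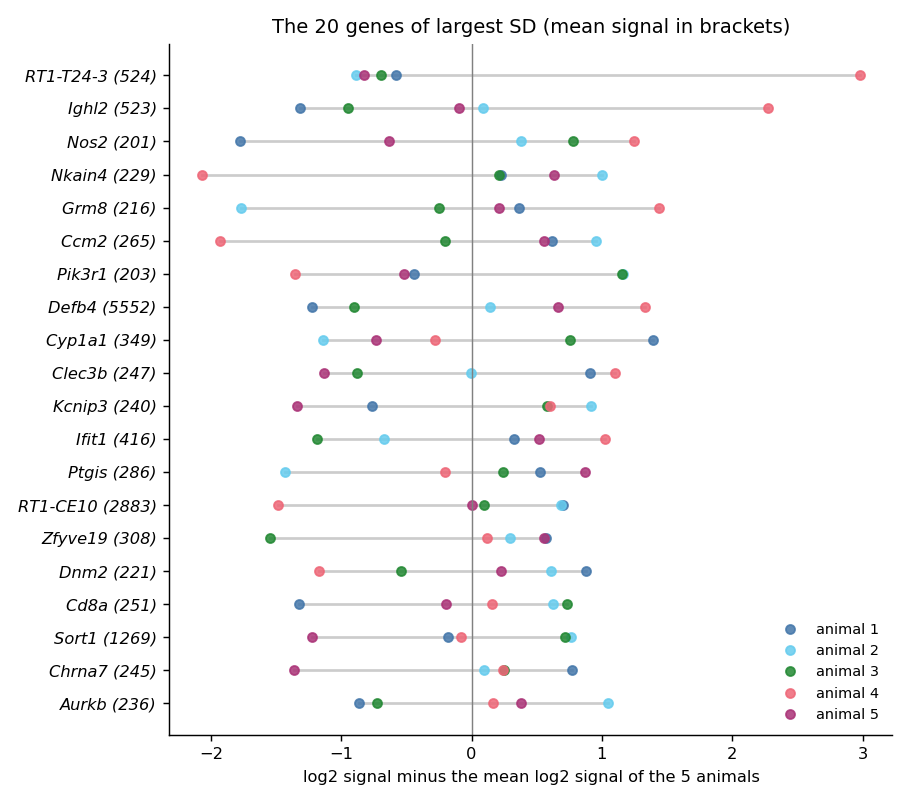
log2 signal of the 20 genes of largest SD in each normal animal, as the difference from the mean of the 5 animals, with 1 point per animal and the mean signal in brackets. RT1-T24-3 and Ighl2 are set by animal 4, while the animals of Defb4 and Cyp1a1 are spread over the range and those of Pik3r1 fall apart into 2 high and 3 low.

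When each SD was divided by the median SD of genes of like signal, 10 of these 20 genes kept a place in the leading 20. Brighter genes then took the other places. Akap5, a scaffold protein listed as a type I marker, read 1365, 767, 1327, 2048 and 549. Inpp5b, an inositol phosphatase, was low in animals 3 and 4 (542 and 547) and between 1199.5 and 1448 in the others. Scd, the stearoyl-CoA desaturase that makes monounsaturated fat, read 1302, 1833, 1316, 1039 and 525.5, whereas Fasn and Acly of the same pathway had SDs of 0.11 and 0.14. Pla2g2a, a secreted phospholipase, was low in animal 2 (277) and between 669.8 and 912 in the rest.

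Some genes are read by more than 1 probe set. Of the 99 variable genes, 11 had a further probe set with a mean of at least 200, 17 such sets in all. Of these 17, 6 had an SD of at least 0.5 and 6 were highest in the same animal as the leading set, and the background among all 925 further probe sets of genes was 21 with an SD of at least 0.5 (2.27%). Ppm1l read 550.3, 480.1, 464, 1081 and 1424 in its leading set, but its further set had an SD of 0.16. The 3 further sets of Larp1 had SDs of 0.06 to 0.09. A further dim set of Ppm1l, with 43.4, 29.3, 38.9, 64.7 and 71.7, was highest in animals 4 and 5 like the leading one.

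Class I genes of the major histocompatibility complex, which rat nomenclature calls RT1 and which present peptides to cytotoxic T cells, included several that varied together. Over class I and class II together, the array holds 29 probe sets that name an RT1 gene alone, and 23 of them had a mean of at least 200. Of these 23, 9 had an SD of at least 0.5, and the median was 0.32, beside 1.47% of all genes with such an SD and a median of 0.16. Among the 9 were both sets of RT1-Ba and a further set of RT1-Db1, which are class II genes. The 23 hold further sets as well as leading ones, and of the further sets of all genes 2.27% had such an SD. RT1-CE10 read 4148, 4090.1, 2716, 912 and 2547, RT1-CE12 13504, 11229, 7249, 3864 and 9584, and RT1-CE16 2585, 3139.9, 1683, 1256 and 2528. RT1-CE5, in its leading probe set, read 1790, 2419.5, 1036, 850.4 and 2274. Animal 4 was the lowest in 6 of the 7 RT1-CE probe sets and animal 3 in the other, and in 6 of the 7 both animals lay below animals 1, 2 and 5. Over all genes of mean signal of at least 200, animal 4 was lowest for 21.9% and animal 3 for 17.2%. A share for both together is not given. These animals were singled out after the values had been seen, and several of the 7 sets name the same gene, RT1-CE5. The highest value was 3.50 times the lowest for RT1-CE12 and 4.55 times for RT1-CE10.

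The animal with the lowest RT1-CE signals was the one with the high signal of RT1-T24-3. B2m, the partner chain of class I molecules, did not follow the RT1-CE genes, with 16731, 16738, 14188, 18281 and 16867. Other class I genes were steadier, with SDs of 0.24 for RT1-T24-4, 0.20 for RT1-A3 and 0.12 for RT1-M3-1. Among class II genes, which present peptides to helper T cells, RT1-Da had a mean of 7188 and RT1-Bb one of 3540.1, with SDs of 0.19 and 0.21, and the invariant chain Cd74 had a mean of 11344. RT1-Ba stood apart, at 769.6, 1025, 1816, 2358 and 1978. Its further probe set gave 297, 519, 320, 29.3 and 532, lowest in animal 4, where the leading set was highest. RT1-Db1 had a further probe set that read 40.4, 21.4, 508, 331 and 217, while its leading set ranged from 1616 to 2213. RT1 genes resemble each other and differ between haplotypes, and several of these probe sets are of kinds that can bind related transcripts. The part of shared or differing sequence in these values was not tested.

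**Figure D5:**
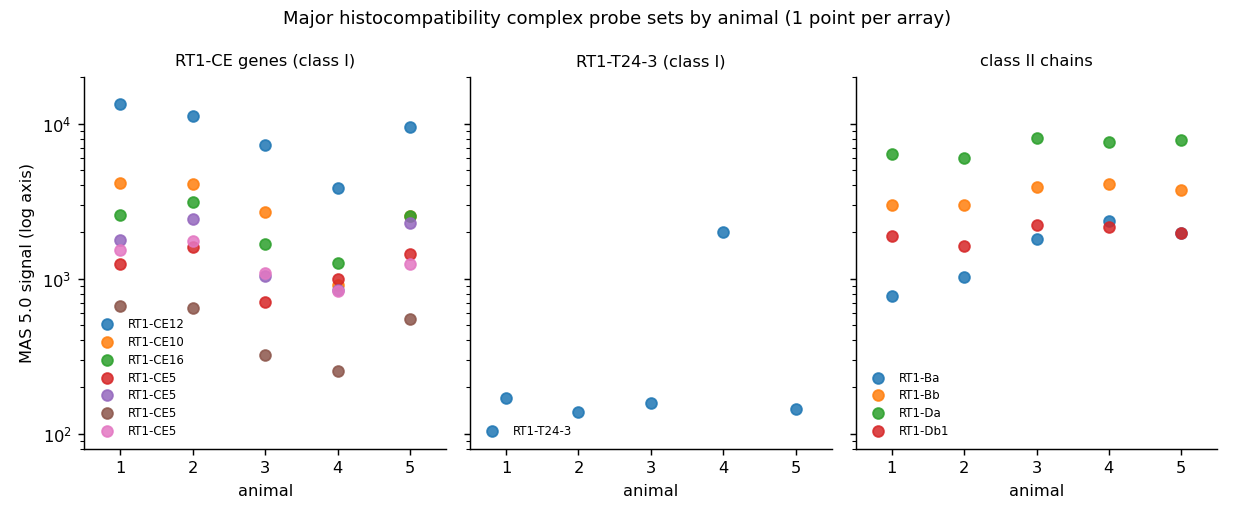
MAS 5.0 signal (log axis) of RT1 probe sets in normal animals 1 to 5, with 1 point per array: the 7 RT1-CE probe sets of mean signal of at least 200 (left), RT1-T24-3 (middle) and the leading probe sets of 4 class II genes (right). The RT1-CE points of animals 3 and 4 lie low, and RT1-T24-3 is high in animal 4 alone at 2007.

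The 200 bases before the start sites of the 4 RT1-CE genes are shown because the leading probe set of each was lowest in animal 4. GATTCCCC, part of the enhancer A of class I promoters, and TTTCACTT, part of their interferon response element, were searched on both strands and are in capitals.
RT1-CE5 (chr20:3484091-3484290, minus strand): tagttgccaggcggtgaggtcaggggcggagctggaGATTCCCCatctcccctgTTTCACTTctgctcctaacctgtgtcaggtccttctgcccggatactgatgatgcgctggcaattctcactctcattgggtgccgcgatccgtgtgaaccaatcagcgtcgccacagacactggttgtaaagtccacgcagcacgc
RT1-CE10 (chr20:3384980-3385179, minus strand): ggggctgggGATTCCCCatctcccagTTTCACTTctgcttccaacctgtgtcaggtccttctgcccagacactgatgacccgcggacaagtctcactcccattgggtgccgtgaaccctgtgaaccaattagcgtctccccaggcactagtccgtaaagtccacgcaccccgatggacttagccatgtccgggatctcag
RT1-CE16 (chr20:3265444-3265643, minus strand): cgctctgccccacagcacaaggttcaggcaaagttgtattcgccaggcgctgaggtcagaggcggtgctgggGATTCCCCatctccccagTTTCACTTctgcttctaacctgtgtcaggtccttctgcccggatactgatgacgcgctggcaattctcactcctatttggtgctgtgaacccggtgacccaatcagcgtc
RT1-CE12 (chr20:3347226-3347425, minus strand): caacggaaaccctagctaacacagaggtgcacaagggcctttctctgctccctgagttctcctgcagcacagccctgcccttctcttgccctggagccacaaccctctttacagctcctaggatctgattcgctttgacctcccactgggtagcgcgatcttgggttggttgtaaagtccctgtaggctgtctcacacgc
RT1-CE5, RT1-CE10 and RT1-CE16 each held both motifs, 1 shortly after the other, and the window of RT1-CE12 held neither. The share of all 33469 promoters with the motif was 0.589% for GATTCCCC and 1.19% for TTTCACTT. The windows are those of the reference genome and not of these outbred animals, and the part of the motifs in the signals was not tested.

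Genes induced by interferon and immediate early genes, which respond within minutes to stress, handling or growth signals, were in part highest in the same animals. Of 11 interferon-induced genes of mean signal of at least 200, 7 were higher in both animals 4 and 5 than in the other 3, and the same held for 7 of 14 immediate early genes. These animals were singled out after the values had been seen, and over all 6755 genes the share was 11.7%. Irf7, a regulator of the interferon response, read 850.3, 899, 961, 1549.6 and 1715. Usp18, which dampens it, read 596, 547, 596, 904 and 738, and Mx1, an antiviral GTPase, 349, 352, 400.1, 548 and 485. Ifit1 read 451, 226, 158, 731 and 516. In all 4, animals 4 and 5 were the highest. Mx2 differed, with 389, 353, 379, 547 and 297, and animal 5 was the lowest. Gbp2, Stat2, Rsad2 and Ifit3 had SDs of 0.06 to 0.15 in their leading probe sets. A further set of Stat2 had an SD of 0.29, with 659, 397, 472, 572 and 450.4, and was highest in animal 1.

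Among immediate early genes Egr1, a zinc finger factor, read 626, 489.6, 657, 1359.8 and 1247 (SD 0.65), and the nuclear receptor Nr4a1 461, 431, 579, 902 and 649.8. Atf3 read 230.1, 103, 248, 221 and 419 and the phosphatase Dusp1, the brightest of the group, 2403, 2216, 3313, 3425 and 2757. The average deviation of the 14 genes from their means was 0.23 and 0.15 on the log2 scale in animals 4 and 5, and -0.28 in animal 2, which was the lowest for 6 of the 14. Ier2 and the leading probe set of Klf2 went otherwise and were lowest in animal 5, at 443 and 2084. Further sets of Klf2 were not alike. A set with 376.9, 408.3, 528, 529.5 and 406 was lowest in animal 1 and highest in animal 4. Another, with 596.6, 611.8, 700.7, 840.8 and 630.2, had the same lowest and highest animals. A set with 481.7, 431.3, 430.4, 581.2 and 362 and a dim set with a mean of 11.2 were lowest in animal 5. Fos, at a mean of 160.2, was under the limit. Heat shock genes showed no such pattern, since their average deviation lay within 0.04 of 0 in every animal and their median SD was 0.12. In clock genes Nr1d2, a nuclear receptor repressor, read 645, 532, 288, 350.3 and 646 and Per1 692, 474, 484, 425 and 719, with animals 1 and 5 the highest in both. A further probe set of Nr1d2 read 249.8, 288, 227, 257 and 564, with animal 5 alone high. The time of tissue collection per animal was not given in the sources used here. The beta-actin 3′ to 5′ ratio was also highest in animals 4 and 5, and its part in these values was not tested.

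The 200 bases before the start sites of Irf7 and Ifi27 are shown as interferon-induced genes, 1 that varied and 1 that was high and steady. GAAANNGAA, the core that interferon regulatory factors bind, was searched on both strands and is in capitals. Ifit1, Usp18 and Mx2 are named only.
Irf7 (chr1:205800024-205800223, minus strand): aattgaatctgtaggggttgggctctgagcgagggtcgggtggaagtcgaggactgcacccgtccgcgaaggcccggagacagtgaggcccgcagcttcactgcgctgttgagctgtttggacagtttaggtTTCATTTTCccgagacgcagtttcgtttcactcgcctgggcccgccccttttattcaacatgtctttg
Ifi27 (chr6:128355112-128355311, plus strand): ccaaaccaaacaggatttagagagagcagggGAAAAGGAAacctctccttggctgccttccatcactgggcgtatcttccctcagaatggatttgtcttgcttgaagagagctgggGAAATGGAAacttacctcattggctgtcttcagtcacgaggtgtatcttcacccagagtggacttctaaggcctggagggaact
The letters stood 68 bases before the start of Irf7 on the opposite strand, and 169 and 84 bases before that of Ifi27. The share of all promoters with them was 6.48%. Ifi27 had an SD of 0.11 and Irf7 one of 0.47. The window of Mx1, not shown, did not hold the letters, and their part in the signals was not tested.

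Among the cell type lists with at least 3 genes over the limit, those of mast cells and neutrophils varied most between animals. The median SD was 0.37 for the 5 mast cell markers of mean signal of at least 200 and 0.34 for the 3 neutrophil markers, beside 0.16 for all genes. Of the mast cell genes, Kit, the stem cell factor receptor, read 102, 214, 261, 414 and 291, the tryptase Tpsb2 369, 310, 372, 374 and 119.8, and the carboxypeptidase Cpa3 296, 539.9, 354, 368 and 282. Tpsb2 and Cpa3 were lowest in animal 5 and Kit in animal 1. The 5 mast cell genes deviated from their means by 0.36 on average in animal 4 and by -0.32 in animal 5 (log2 scale). The neutrophil genes S100a8 (705, 546, 732, 355 and 471) and S100a9 (3208, 2179.8, 2547, 2097 and 1703) were both highest in animals 1 and 3 and lower in animals 4 and 5. The third, the cytokine gene Il1b, read 519, 441, 419, 546 and 450.2, highest in animal 4. All 3 of these mast cell genes had means under 500, where spread was wider for all genes. The 10 smooth muscle genes deviated from their means by 0.21 on average in animal 5 and by -0.08 to 0.02 in the others (log2 scale). Actg2 read 718 in animal 5 and 324 to 437 in the rest, and Tagln 1758 and 1175 to 1297. The heart genes Myh6 and Myl7 were also highest in animal 5, while Nppa was lowest there, and the part of heart tissue in these values was not tested.

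Fibroblast genes held steady and variable members side by side. Dcn, decorin, read 1191, 1927, 1971, 1803 and 936, and Inmt was likewise lowest in animal 5, whereas the collagen gene Col1a1, with 1468, 1972, 1759, 1308 and 2290.2, was highest there. Collagen Col3a1 ranged only from 8249 to 9243. Fabp5 and the peroxiredoxin Prdx6 (5054, 4516, 4457, 3699 and 3637) were both highest in animal 1 and lower in animals 4 and 5. Aqp4 was raised in animal 4 alone, at 438 against 179.6 to 209.8. Creatine kinase Ckb read 619.5, 517, 409.7, 949.6 and 689.9.

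The 12 steadiest genes had SDs between 0.01 and 0.02 in their leading probe sets. Add1, adducin 1, a membrane skeleton protein, read 1969, 1928, 1939, 1945 and 1951, and Dynlrb1, a dynein light chain, 2125, 2145, 2087, 2116 and 2116. Tgm2, the tissue transglutaminase, lay between 3443 and 3579, Pde4b, a phosphodiesterase, between 1012 and 1041, and Ndufv1, a subunit of respiratory complex I, between 1484 and 1542. The others were Trib2, Tle1, Mxi1, Pacs2, Tril, Ext2 and Bscl2, with means from 443 (Tle1) to 1837 (Trib2). None of the 12 was on the list of reference genes. Further probe sets of Pde4b, Mxi1, Add1 and Tgm2 spread more, with SDs of 0.27, 0.21, 0.15 and 0.09. As groups, the steadiest lists were the ribosomal proteins of the large subunit (median SD 0.12) and the respiratory chain and ATP synthase (0.11), in which Atp5f1b ranged from 5973 to 6257 but Atp5pb from 2402 to 5052.

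The 7 arrays of diabetic lung were used as a second set of animals, only to see whether the same genes varied within them. No difference between the groups was computed. The 99 genes of SD of at least 0.5 among normal animals had a median percentile of 94.5 for their SD among the diabetic animals, and 61 of them lay above the 90th percentile. Of the 33 with a mean of at least 500, 25 did so among genes of that level. Cyp1a1 (107 to 1066), Defb4 (1758 to 8951) and RT1-T24-3 (38.5 to 435) varied again, at percentiles of 99.97, 99.6 and 99.9. Ighl2 did not (289 to 388, percentile 27.2), and Chrna7 lay at 59.0. RT1-CE12 was at 82.1 and RT1-CE10 at 90.4. The 12 steadiest genes were less constant in their place, with percentiles from 1.51 for Add1 to 92.8 for Tril and a median of 38.3.

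The extremes were shared among the animals. Of the 100 genes of largest SD, 20, 21, 11, 25 and 23 were highest in animals 1 to 5 and 22, 19, 15, 17 and 27 were lowest there. Over all 6755 genes the shares of highest values were 20.9%, 14.8%, 16.6%, 23.7% and 24.0%. The shares of lowest values were 20.1%, 16.6%, 17.2%, 21.9% and 24.3%. Animals 4 and 5 thus held more of both the highest and the lowest values than animals 2 and 3 among all genes.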

How the data were processed

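Affymetrix RAE 230A arrays were hybridized with whole lung RNA of 5 normal and 7 diabetic rats, each animal on its own array. The authors computed the deposited signal, a linear intensity per probe set, with MAS 5.0, and every array has a trimmed mean of 500.1 (2% removed at each end). A tool version beyond that was not given in the sources used here. Signals were taken as deposited and transformed to log2. Of 15923 probe sets, 57 were controls, 312 named several genes and 2771 named none, and the rest were named through GEO's platform annotation and RefSeq symbols. SD of log2 signal was computed over the 5 arrays for genes of mean signal of at least 200. No test was run, and the number of arrays limits the precision. The replicates are separate animals. The group, gene lists and naming rule (the 25 highest, 20 most and 12 least variable genes, the 4 brightest and the most variable of each list, and isoform and reference genes, the former by their leading and tissue-restricted members) were chosen with earlier results of these data known, as were further list members named beside them. Alternatives covered scaling, the probe set rule, the limit, the measure of spread and leaving out each animal. The computation was tested on simulated data. Python 3.11.15, pandas 2.3.3, numpy 2.4.6 and matplotlib 3.10.9 were used.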

Additional observations from a re-analysis of the deposited data

Results flagged for a closer look

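In a check of every named gene for 1 animal far from the other 4, the gap of the highest or lowest log2 signal to its neighbour, as a share of the range, passed the limit of 0.71 for 22 of 273 values. Chance alone passes about 1 in 20, and 5.68% of all genes of mean signal of at least 200 passed. RT1-T24-3 had the largest share, 0.921, through 2007 in animal 4. A high animal 4 also set Aqp4 (0.826), and a low animal 4 set Cdk1 (0.802), Nkain4 (0.742) and Slc16a1 (0.724, at 175 in animal 4).

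A high animal 1 set Ager (0.870, at 10515), Eno1 (0.771), Actg1 (0.746) and Ttr (0.732), and a low animal 1 set Acta1 (0.774) and Slc16a7 (0.761). Animal 2 was the low one for Pla2g2a (0.741) and Gpx1 (0.735). Animal 3 was the low one for Zfyve19 (0.786), Pde4b (0.762) and Alb (0.754) and the high one for Cox6a1 (0.791). Animal 5 was the low one for the tryptase Tpsb2 (0.835) and for Pygl (0.716), and the high one for Fabp3 (0.804, at 189.6), Tagln (0.754) and Cox8b (0.729). For Pde4b, one of the steadiest genes, the low value was 1012 beside a mean of 1032, and Acta1, Alb, Cdk1, Fabp3 and Ttr had means under 200.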

How the results depend on the processing

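No paired analysis was possible because only 1 group was described and no test was run. The number of genes with a mean of at least 200 (6755) was 6754, 6756 and 6382 with arrays centred on the median, quantile normalization and the mean of all probe sets of a gene, and 6731 to 6768 without 1 animal. Of the 25 genes of highest signal, 23 to 25 were shared under each alternative, 24 to 25 without 1 animal. The median SD of 0.16 was 0.15 to 0.17 without 1 animal, 0.15 with 50 added to each signal, 0.13 by the median absolute deviation, 0.15 at a limit of 500 and 0.21 with no limit. The count of 99 genes of SD of at least 0.5 was 97 to 125 without 1 animal, 63 with 50 added, 33 at a limit of 500 and 1651 with no limit. Of the 20 genes of largest SD, 11 to 17 were shared without 1 animal (11 without animal 4 and 13 without animal 2), 11 by the median absolute deviation, 10 relative to genes of like signal, 5 at a limit of 500 and 0 with no limit. The 1 heart marker of mean at least 200 was 1 without any 1 animal, an alternative chosen after seeing the data. The causes were not tested, beyond the fewer or more genes that a limit admits. Of 426 recomputed SDs of named genes, 65 moved by more than their sampling error, taken as the SD divided by the square root of 8, and 10 of 301 list ranges over animals moved by over 50%. Signals near 200 limit what can be said of dim genes.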

Other observations

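Most proliferation genes were dim in normal lung, and 4 of 12 had a mean of at least 200, beside 64.9% of all genes. Mki67, Top2a, Cdk1 and Birc5, which mark dividing cells, had means of 107.4, 126.6, 134.6 and 172.8, while Pcna, the sliding clamp of replication and repair, had a mean of 1745 and an SD of 0.10. The others that passed were Mcm3 at 309, Aurkb at 236 and Mcm2 at 232. Among enzymes of foreign compound metabolism other than Cyp1a1, Cyp2e1 read 271, 494, 171, 292 and 352, and Cyp2a3, a cytochrome of the airway, 172, 281, 363, 302 and 325. Nqo1, an antioxidant reductase, was steady from 1257 to 1401, and Hmox1, the inducible haem oxygenase, ranged from 293 to 517.

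Of 4 genes that process antigen for class I molecules, 3 varied little. The transporter subunit Tap1 had a mean of 768 and an SD of 0.14, and the immunoproteasome subunits Psmb8 and Psmb9 had means of 1078 and 1365 and SDs of 0.12 and 0.08. Tap2 read 252, 214, 231, 167 and 374, with an SD of 0.42, lowest in animal 4 like the RT1-CE genes but highest in animal 5.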
